A study of Homo sapiens with 6 samples.

Results

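The genes described here are the membrane trafficking genes whose symbols start with RAB, VPS, SNX, STX, VAMP, EXOC or SNAP followed by a digit. They were found by symbol alone in the table that pairs array probe sets with genes: 112 symbols matched, and 12 were left out because they name Rab interactors of the RAB3GAP and RAB11FIP kinds or antisense RNAs. The remaining 100 genes were members, of 14884 genes measured. They comprised 34 VPS, 28 SNX, 16 STX, 10 EXOC, 7 VAMP and 5 RAB symbols, and 0 SNAP symbols. The 5 RAB symbols were RAB3IL1, RAB3IP, RAB5IF, RAB30-DT and RAB6D, so of the Rab GTPases themselves only RAB6D was covered; the other Rabs and the SNAP genes were not analysed here. The set is therefore one of vacuolar sorting (VPS), sorting nexin, syntaxin, VAMP and exocyst genes. By RefSeq biotype, 95 members were protein coding, 3 were long non-coding or readthrough RNAs (RAB30-DT, STX17-DT and STX16-NPEPL1) and 2 were pseudogenes (SNX29P1 and SNX29P2), whose sequence is close to that of SNX29. Each gene was read from 1 probe set, the brightest over the 6 arrays, and 84 of the 100 members lay above the median of all gene means, 2.99 on the log2 scale.

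The study profiled total RNA from Hs578T, a human breast cancer cell line with mesenchymal traits, on Affymetrix HuGene 2.0 arrays. It asked how loss of CSRP2, a LIM domain protein that binds actin filaments, changes the transcriptome. Both groups were grown in DMEM with 10% fetal bovine serum and 0.01 mg/ml insulin and were seeded at 150000 cells per well of a 6-well plate. They were transfected with Lipofectamine the next day, 3 samples with non-targeting siRNA (siControl, replicates 1 to 3) and 3 with CSRP2 siRNA (siCSRP2, replicates 1 to 3). Of each well, 100000 cells were replated in 24-well format 24 h after transfection, and RNA extraction followed after another 48 h. Nothing says that the replicates came from separate cultures, so p-values measure the spread between these samples, and the number of arrays, 3 per group, limits the precision. The labels name 1 CSRP2 siRNA without saying how many sequences it held, and there was no untransfected group. CSRP2 itself read 3.69, 4.01 and 4.35 in siControl and 3.25, 3.76 and 4.26 in siCSRP2. The groups overlapped, and the difference of -0.26 was not past the threshold (limma, adjusted p = 0.583; exact permutation test, two-sided, p = 0.5, smallest possible 0.1). With arrays paired by replicate number, as described below, CSRP2 was lower in siCSRP2 in 3 of 3 pairs. It was still not past the threshold (limma with replicate number as a block, adjusted p = 0.188). The targeted transcript thus does not check the labels, and the names siControl and siCSRP2 below refer to the arrays labelled so. Of 8 markers of a mesenchymal breast line 5 were measured, and the siControl means of VIM, FN1, AXL and CD44 ran from 8.04 to 11.1, with S100A4 at 4.21. AXL, VIM, S100A4 and FN1 were past the threshold, lower in siCSRP2, with AXL at 8.32 in siControl and 6.59 in siCSRP2. The luminal and epithelial markers ESR1, PGR, KRT19 and EPCAM had means of 2.40 to 3.34, the leukocyte markers CD14 and LYZ 2.64 to 3.66 and the endothelial markers VWF and PECAM1 2.41 to 2.65, with none past the threshold.

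Membrane cargo moves between compartments in vesicles and tubules. Rab GTPases mark a membrane and recruit tethers, of which the exocyst acts at the plasma membrane, GARP at the trans-Golgi network and HOPS and CORVET on endosomes and lysosomes. SNARE proteins, here syntaxins and VAMPs, then zip together across the 2 membranes and fuse them. Sorting nexins, retromer and retriever pull receptors and adhesion proteins out of endosomes for reuse, and the ESCRT machinery sorts others into internal vesicles for degradation. VAMP3, VAMP7, STX4, the exocyst and retromer are among the genes known for delivering or recycling the membrane protease MMP14.

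Trafficking genes lower in siCSRP2 outnumbered those higher, as did genes in general. With limma's moderated test and Benjamini-Hochberg adjustment over all 14884 genes, 17 members fell and 2 rose, STX11 and VPS4B, while 81 were not past the threshold of 0.05. Over all genes tested, 974 (6.54%) were lower and 119 (0.800%) higher, so the split between directions was near that of the members. Since members are brighter than the typical gene, the same count was read over the genes above the median of all gene means, a comparison chosen after the data were seen. There 16 of 84 members (19.0%) were lower beside 12.7% of genes, and 2 were higher beside 1.41%. The median log2 difference, siCSRP2 minus siControl, was -0.22 over the members and 0.02 over all genes. Over those brighter genes it was -0.28 for the members and -0.15 for all genes, so a downward lean was shared by bright genes in general. In all, 77 of the 100 members had a difference below 0. The highest siCSRP2 array lay below the lowest siControl array for 36 members, beside 16.2% of all genes, and 3 members were apart in the other direction, beside 11.5%. Shares of genes apart were not counted over the brighter genes alone. Differences of members past the threshold ran in size from 0.49 to 1.58 on the log2 scale, against a median within-group SD of 0.20 over the members. In bulk RNA, fewer cells expressing a gene and less of its RNA per cell cannot be told apart.

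**Figure D1:**
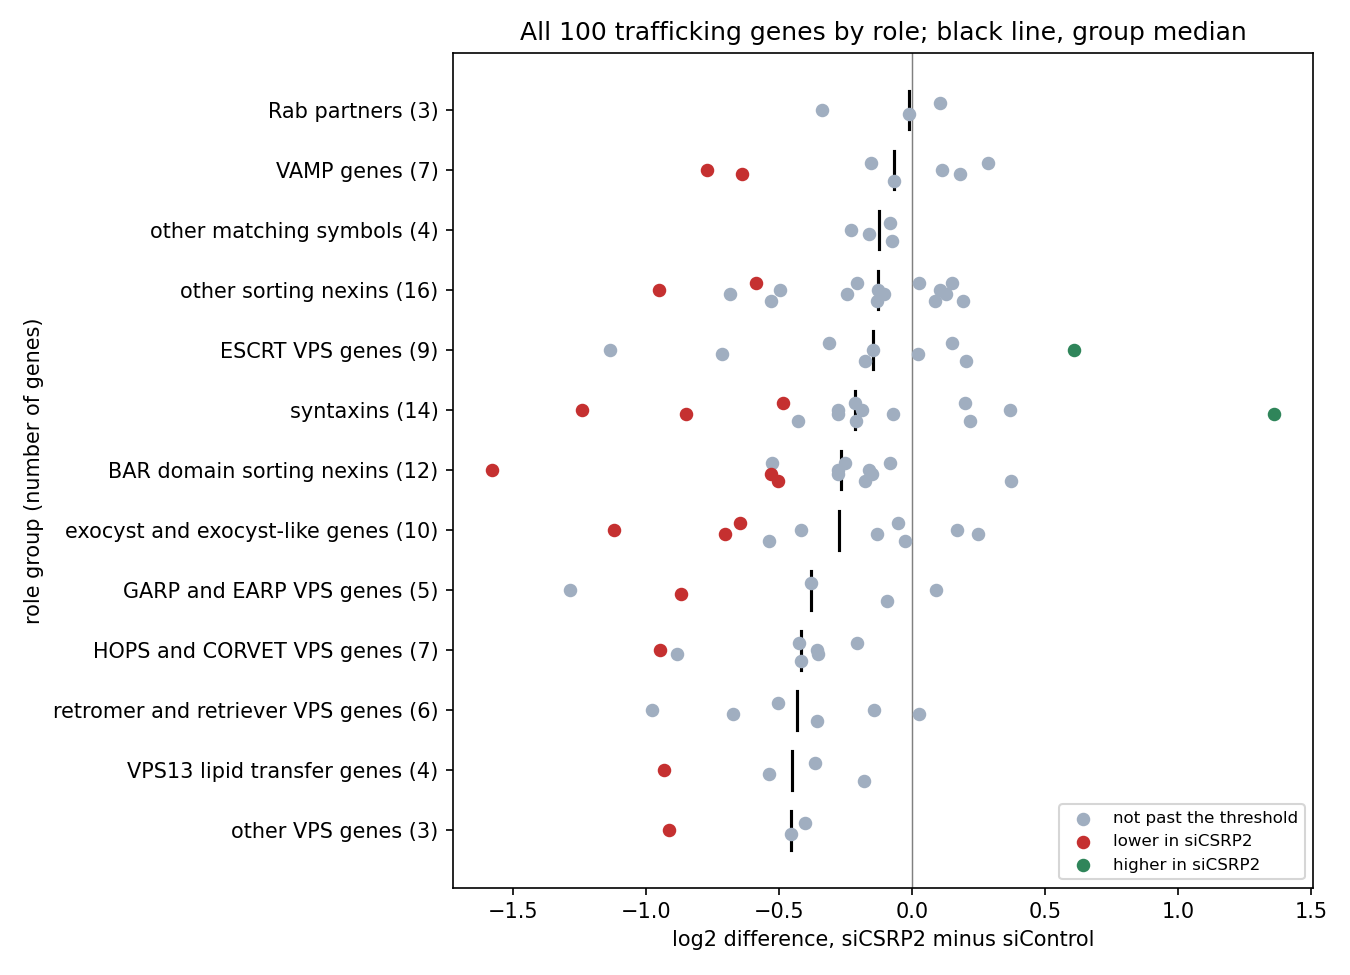
Log2 difference, siCSRP2 minus siControl, of each of the 100 members (points) by role, with the number of genes in parentheses, a black line at each group's median, and colours for genes past the threshold. The 2 genes that rose, STX11 at 1.36 and VPS4B at 0.61, stand right of 0, and the lowest point is SNX7 at -1.58.

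The replicate numbers of the labels are taken to pair the arrays, because same-numbered arrays deviated from their group means together over all genes (r from 0.187 to 0.321). Over the 100 members alone this held less evenly: r was 0.52 for replicate 1, 0.57 for replicate 3 and close to 0 for replicate 2, while siControl replicate 2 and siCSRP2 replicate 1 had 0.42. The calls with the block are therefore given beside those without it and do not replace them. The pairing was chosen from these same values, so p-values with the block may be too small. With the replicate number as a block, 32 members were lower, beside 13.1% of all genes, and 2 were higher, beside 2.67%. Members are brighter than the typical gene, and blocked shares over the brighter genes alone were not counted. The block kept all 19 genes called without it and added 15, which are given below with their blocked adjusted p. Counts by role and by list below are for small groups. They are to be read beside the shares over all genes, 6.54% lower without the block and 13.1% with it. Over the brighter genes, 12.7% were lower without the block.

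Promoter sequences are shown for the 2 genes that rose, for VPS4A, the near twin of VPS4B, and for SNX7 and STX8, the largest falls with an entry among the 17 genes that fell without the replicate block described above. Each is the 250 bases before the gene's start in RefSeq, build GRCh38.p14, on the gene's strand, 5′ to 3′. Capitals mark matches, on either strand, to the 6 motifs searched. STX11 lies at chr6:144150267-144150516 on the plus strand, VPS4B at chr18:63422477-63422726 on the minus strand, VPS4A at chr16:69311100-69311349 on the plus strand, SNX7 at chr1:98661471-98661720 on the plus strand and STX8 at chr17:9575821-9576070 on the minus strand.
STX11: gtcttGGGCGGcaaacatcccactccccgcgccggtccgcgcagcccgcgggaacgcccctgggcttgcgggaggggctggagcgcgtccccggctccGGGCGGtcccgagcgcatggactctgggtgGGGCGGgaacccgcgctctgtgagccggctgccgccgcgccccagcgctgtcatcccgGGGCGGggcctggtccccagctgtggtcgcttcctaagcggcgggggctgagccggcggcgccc
VPS4B: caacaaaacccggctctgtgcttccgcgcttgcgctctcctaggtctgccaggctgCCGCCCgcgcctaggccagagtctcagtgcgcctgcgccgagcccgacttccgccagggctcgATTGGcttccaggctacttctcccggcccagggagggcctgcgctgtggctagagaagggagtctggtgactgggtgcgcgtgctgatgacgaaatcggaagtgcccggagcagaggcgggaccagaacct
VPS4A: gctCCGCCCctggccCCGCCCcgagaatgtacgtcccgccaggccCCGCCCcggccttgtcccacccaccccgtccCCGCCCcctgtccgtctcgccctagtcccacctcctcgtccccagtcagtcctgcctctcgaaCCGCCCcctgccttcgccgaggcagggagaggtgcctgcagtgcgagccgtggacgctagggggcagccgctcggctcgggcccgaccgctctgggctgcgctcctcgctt
SNX7: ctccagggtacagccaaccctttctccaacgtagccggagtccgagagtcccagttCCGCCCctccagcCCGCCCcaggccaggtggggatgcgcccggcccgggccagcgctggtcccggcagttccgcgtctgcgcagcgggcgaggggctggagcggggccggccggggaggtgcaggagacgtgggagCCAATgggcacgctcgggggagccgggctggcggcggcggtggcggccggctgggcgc
STX8: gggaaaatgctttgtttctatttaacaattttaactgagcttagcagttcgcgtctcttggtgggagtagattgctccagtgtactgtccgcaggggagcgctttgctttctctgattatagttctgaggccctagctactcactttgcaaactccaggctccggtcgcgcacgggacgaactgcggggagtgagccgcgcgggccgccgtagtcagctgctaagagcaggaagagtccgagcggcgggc
The STX11 promoter held 4 copies of GGGCGG, the GC box that Sp1-type factors bind, and the VPS4A promoter held 5. VPS4B had 1 GGGCGG and 1 CCAAT, SNX7 had 2 GGGCGG and 1 CCAAT, and STX8 held no match to any motif in this window. The GGGCGG matches of VPS4A, VPS4B and SNX7 and the CCAAT of VPS4B were read on the other strand.

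Of the 100 members, 77 had a promoter entry, and 15 of these were among the 17 genes that fell; EXOC6B and SNX17 had none. GGGCGG was present in 52 of the 77 (67.5%), beside 42.3% of 27305 promoters of the same length, and in 9 of the 15 that fell. CCAAT, the NF-Y box, was present in 23 members (29.9%) beside 33.0% of all promoters, and in 7 of the 15. CACGTG, the E-box that MYC and the lysosomal regulator TFEB read, was present in 5 members (6.49%) and in 6.49% of all promoters. TGACGTCA, the CREB site, was in 4 members (5.19%) beside 1.77%. TGANTCA, the AP-1 site, was in 2 members (2.6%) beside 6.6%, and TATAAA in 2 members (2.6%) beside 11.1%. Of these last 4 motifs, 0 matches were found in the 15 promoters of genes that fell. Matches were counted on both strands, no motif contains another, and they describe letters in this window only. The 27305 promoters are those of every gene with an entry. They were not limited to the genes measured here or matched to the members in biotype or brightness.

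Among syntaxins, the target-membrane SNAREs, 1 of 14 rose, 3 fell and 10 were not past the threshold. STX11, a syntaxin best known for the release of cytotoxic granules by lymphocytes, read 3.22, 3.07 and 4.08 in siControl and 4.21, 4.98 and 5.26 in siCSRP2. All siCSRP2 arrays were above all siControl arrays, with siControl replicate 3 the highest control, just below siCSRP2 replicate 1. The means were 3.46 ± 0.55 and 4.82 ± 0.54 (SD, n = 3 each). The difference was 1.36 (SE 0.32, 95% interval 0.64 to 2.08), a 2.57-fold higher level, with a limma adjusted p of 0.0391 and 0.00287 with the block. The exact permutation test gave p = 0.1, two-sided, the smallest that 3 against 3 arrays allow. The call was lost, with the difference at 1.14 to 1.28, when siControl replicate 1 or 2 or siCSRP2 replicate 2 or 3 was left out. STX11's known partners did not pass. STXBP2, its chaperone, differed by -0.04 (limma adjusted p = 0.908), the priming factor UNC13D by 0.03 (0.907) and the vesicle SNARE VAMP8 by 0.28 (0.294). STXBP2 and UNC13D were dim, with means of 2.94 and 2.46 in siControl and 2.90 and 2.49 in siCSRP2. These lie below the median of all gene means, 2.99, so a change in them may be understated.

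The 3 syntaxins that fell act on endosomes. STX8, a late endosomal SNARE, read 5.91, 5.86 and 5.07 in siControl and 4.81, 4.04 and 4.26 in siCSRP2, a difference of -1.24 (SE 0.26, limma adjusted p = 0.0285). STX7, which sits with STX8 in the same fusion complex, read 4.90, 4.67 and 4.14 against 3.79, 3.93 and 3.44, a difference of -0.85 (SE 0.21, limma adjusted p = 0.0449). For both genes the groups were apart, with siControl replicate 3 the lowest control and closest to the siCSRP2 arrays. STX10, a SNARE of endosome to trans-Golgi transport, read 4.51, 4.74 and 4.65 against 4.21, 4.12 and 4.12, a difference of -0.49 (SE 0.11, limma adjusted p = 0.0339). VTI1B, the further SNARE of the STX7 and STX8 complex, is no member by symbol. It read 5.46, 5.42 and 4.89 against 4.65, 4.34 and 4.40, a difference of -0.79 (limma adjusted p = 0.0306). Of the complex's vesicle SNAREs, VAMP8 differed by 0.28 and VAMP7 by -0.16 (limma adjusted p = 0.514), neither past the threshold; whether they differ from STX7 and STX8 was not tested. STX7, STX8 and STX10 were not past it after quantile normalization, nor STX7 and STX10 after cyclic loess, nor STX10 with an intensity trend.

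**Figure D2:**
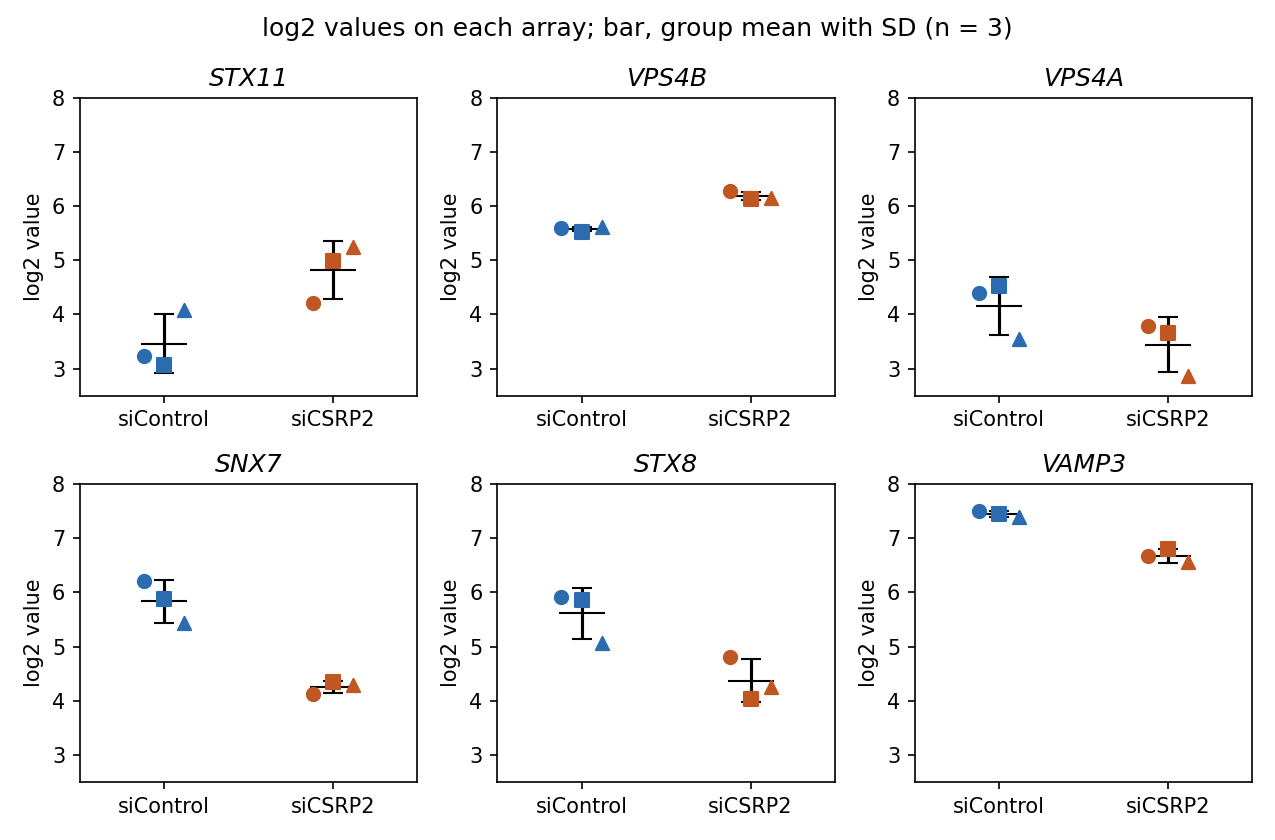
Log2 level on each of the 3 siControl and 3 siCSRP2 arrays (points, 1 marker shape per replicate) of STX11, VPS4B, VPS4A, SNX7, STX8 and VAMP3; bars give each group's mean with its SD, n = 3. STX11 and VPS4B are higher in every siCSRP2 array, SNX7, STX8 and VAMP3 are lower, and the VPS4A groups overlap.

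Of the 7 VAMP genes, the vesicle-side SNAREs, 2 fell and 5 did not pass. VAMP3, the SNARE of recycling endosomes also called cellubrevin, read 7.50, 7.44 and 7.40 in siControl and 6.67, 6.80 and 6.56 in siCSRP2. The arrays within each group lay close together and siControl replicate 3 did not stand apart, giving a difference of -0.77 (SE 0.11, limma adjusted p = 0.00926). VAMP1, a synaptobrevin of regulated exocytosis, read 3.78, 3.66 and 3.54 against 3.17, 2.97 and 2.91, a difference of -0.64 (SE 0.12, limma adjusted p = 0.0197). VAMP2, the close relative of VAMP3, differed by 0.18 and did not pass (limma adjusted p = 0.559). Measured within each array, the VAMP2 minus VAMP3 gap moved up by 0.95 from siControl to siCSRP2 and its ranges were apart. This pair was chosen after its values were seen, and the gap is a description.

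Outside the members, 11 of 13 other SNAREs were measured, and 2 fell, VTI1B and SEC22C, an endoplasmic reticulum SNARE-like protein (-0.70, limma adjusted p = 0.0167). The median over the 11 was -0.05. Of 20 measured SNARE regulators of 26 listed, 1 fell and 0 rose. It was STXBP5, tomosyn, which holds syntaxins away from productive fusion: 4.56, 4.98 and 4.36 in siControl against 3.49, 3.51 and 3.44 in siCSRP2 (-1.16, limma adjusted p = 0.00832). The median over the 20 regulators was 0.01, close to that of all genes.

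Sorting nexins bind endosomal phosphoinositides through a PX domain, and 12 members also carry a BAR domain that bends membrane into tubules. Of these 12, 3 fell, beside 6.54% of all genes, 0 rose and 9 did not pass, and 11 had a difference below 0. SNX7, a partner of SNX4 in endosomal recycling and autophagy, read 6.21, 5.88 and 5.43 in siControl and 4.13, 4.34 and 4.30 in siCSRP2. Every siCSRP2 array was well below every control, and the fall was the largest among members past the threshold. It came to -1.58 (SE 0.19), a 2.99-fold lower level, with a limma adjusted p of 0.00560. SNX7 was the only one of the 19 that passed whichever array was left out. SNX4 differed by -0.53 and passed only with the block (limma adjusted p = 0.0277). SNX1, which coats tubules carrying cargo back to the Golgi, read 3.96, 3.98 and 3.75 against 3.33, 3.39 and 3.38, a difference of -0.53 (SE 0.11, limma adjusted p = 0.0265). Its relative SNX2 differed by -0.09 (adjusted p = 0.804) and its partners SNX5 and SNX6 by 0.37 and -0.18, none past the threshold in limma. SNX18, which remodels membrane in endocytosis and autophagosome formation, read 3.00, 3.00 and 2.71 against 2.38, 2.31 and 2.51. It was dim, its mean over the 6 arrays, 2.65, lying below the median of all gene means, 2.99. Its difference was -0.51 (SE 0.12, limma adjusted p = 0.0453).

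Among the other 16 sorting nexin symbols, 2 fell and 14 did not pass. SNX17, the adaptor that hands integrins and LRP1 to retriever, read 4.61, 4.45 and 3.97 in siControl and 3.66, 3.31 and 3.22 in siCSRP2. The groups were apart and the difference was -0.95 (SE 0.19, limma adjusted p = 0.0227). SNX13, an RGS domain sorting nexin tied to endosomal cholesterol, read 5.28, 5.16 and 4.85 against 4.42, 4.64 and 4.47, a difference of -0.59 (SE 0.14, limma adjusted p = 0.0406). SNX1 and SNX13 lost their calls with an intensity trend, and SNX13 also after quantile normalization and cyclic loess. SNX27, the adaptor that links cargo to retromer, differed by -0.50, and SNX21 by -0.53. Both passed only with the block (limma adjusted p = 0.0326 and 0.0407).

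Retromer and retriever take the cargo that SNX27 and SNX17 select. Their 6 VPS genes had a median difference of -0.43, and 0 passed without the block. VPS35L, the large subunit of retriever, read 5.14, 5.14 and 4.13 in siControl and 3.92, 3.95 and 3.60 in siCSRP2. The groups were apart, with siControl replicate 3 close above the siCSRP2 arrays. The difference of -0.98 had a limma adjusted p of 0.0574, and 0.00552 with the block. VPS35, the retromer scaffold, differed by -0.67 and VPS29, shared by both complexes, by -0.51, with blocked limma adjusted p of 0.00902 and 0.0492. VPS26A and VPS26B, alternative retromer subunits, differed by -0.15 and 0.03. Over 16 measured WASH and retriever partner genes of 18 listed, the median difference was -0.36. Of them 3 fell, beside 6.54% of all genes, and 0 rose. The 3 that fell were COMMD7 (-0.86), COMMD8 (-0.86) and COMMD2 (-0.78), subunits of the CCC complex that works with retriever. Their limma adjusted p were 0.0128, 0.0169 and 0.0251. With the block 6 fell, beside 13.1% of all genes. Among the 6 were WASHC5 (-0.87) and WASHC3 (-0.73) of the actin-nucleating WASH complex.

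HOPS and CORVET tether late and early endosomes. The 7 measured VPS genes grouped here with them include VPS33B, taken in as a relative of the subunit VPS33A. All 7 had a difference below 0, with a median of -0.42, and 1 fell. VPS41, a HOPS subunit, read 4.92, 4.78 and 4.31 in siControl and 4.09, 3.70 and 3.36 in siCSRP2, a difference of -0.95 (SE 0.21, limma adjusted p = 0.0350). VPS39, its HOPS neighbour, and VPS8, a CORVET subunit, differed by -0.88 and -0.42 and passed only with the block (limma adjusted p = 0.0128 and 0.0360). VPS41 lost its call after quantile normalization and after cyclic loess.

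GARP and its sister EARP tether vesicles at the trans-Golgi network and recycling endosomes. Of their 5 genes 1 fell: VPS54, the GARP-specific subunit, read 4.20, 3.95 and 3.45 against 3.02, 2.94 and 3.04, a difference of -0.87 (SE 0.18, limma adjusted p = 0.0264). VPS52, common to both complexes, read 5.53, 5.46 and 4.06 against 4.0, 3.97 and 3.22. Its groups were barely apart and the difference of -1.29 passed only with the block (limma adjusted p = 0.0794 and 0.00219 with the block). Its other probe set gave -1.05. VPS50, the EARP-specific subunit, differed by -0.38 (0.0491 with the block in limma). The probe sets of VPS51, also in both complexes, disagreed in sign at 0.09 and -0.05. VPS45, the SM protein that assists SNARE fusion on early endosomes, read 4.85, 4.64 and 4.15 against 3.55, 3.75 and 3.60, a difference of -0.92 (SE 0.18, limma adjusted p = 0.0222).

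The 9 VPS genes of the ESCRT machinery held the second gene that rose. VPS4B, one of the AAA ATPases that take ESCRT-III filaments apart, read 5.59, 5.53 and 5.61 in siControl and 6.27, 6.14 and 6.14 in siCSRP2. Arrays of a group lay close together and the groups were apart, giving 0.61 (SE 0.10), a 1.52-fold higher level, with a limma adjusted p of 0.0144. VPS4A, the other VPS4 ATPase, read 4.39, 4.53 and 3.55 against 3.80, 3.66 and 2.86. Its groups overlapped, and the difference of -0.72 passed only with the block (limma adjusted p = 0.194 and 0.00537 with the block). The gap between VPS4B and VPS4A within an array was 1.20, 1.00 and 2.06 in siControl and 2.48, 2.47 and 3.28 in siCSRP2, with ranges apart. This pair and 7 others of close relatives were chosen after their values were seen, so the gaps are descriptions. Of the 8 pairs, 5 had ranges apart, and how often other gene pairs are apart was not counted. VPS25, an ESCRT-II subunit, read 6.76, 6.74 and 5.23 against 5.71, 5.18 and 4.44, overlapping groups with a difference of -1.14 (0.00335 with the block in limma). Among 16 of 23 other ESCRT genes measured, 0 passed without the block. With it IST1, a regulator of VPS4, was higher by 0.47, and CHMP2A and CHMP4A, filament subunits, differed by -0.49 and -0.43.

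The VPS13 proteins move lipids between organelles at contact sites. All 4 had differences below 0, with a median of -0.45. VPS13C, which joins the endoplasmic reticulum to late endosomes, fell from 4.49, 4.82 and 4.48 in siControl to 3.88, 3.48 and 3.62 in siCSRP2, by 0.93 on the log2 scale (SE 0.15, limma adjusted p = 0.0120). VPS13A differed by -0.54 and passed only with the block (limma adjusted p = 0.0151).

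Of the 10 exocyst and exocyst-like genes, 3 fell, beside 6.54% of all genes, and 7 did not pass, with a median of -0.28. EXOC6B, a Sec15 subunit that meets Rab11 on the vesicle, read 5.34, 5.28 and 4.71 in siControl and 4.03, 3.96 and 3.97 in siCSRP2. The siCSRP2 arrays lay close together and below every control, a difference of -1.12 (SE 0.17, limma adjusted p = 0.0103), 2.18-fold lower. Its paralog EXOC6 differed by -0.54 and EXOC2, the Sec5 subunit, by -0.42, both past the threshold only with the block (limma adjusted p = 0.0226 and 0.0482). EXOC4, the Sec8 subunit, read 4.94, 5.11 and 4.64 against 4.34, 4.22 and 4.19, a difference of -0.65 (SE 0.14, limma adjusted p = 0.0296). EXOC1, the Sec3 subunit that binds the plasma membrane, read 5.38, 5.03 and 4.77 against 4.52, 4.42 and 4.12, a difference of -0.70 (SE 0.17, limma adjusted p = 0.0463). EXOC1 and EXOC4 lost their calls after quantile normalization and cyclic loess, and EXOC1 also with an intensity trend. EXOC5, EXOC8 and EXOC3 differed by -0.03, -0.05 and -0.13 and did not pass.

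The genes known for delivering or recycling MMP14 cross several of these complexes: 17 of 28 were measured, 14 of them members. Of the 17, 3 fell, VAMP3, EXOC4 and EXOC1, and 0 rose, with a median of -0.31, beside 6.54% lower over all genes and 12.7% over the brighter ones. With the block 8 fell, beside 13.1% of all genes, the added ones being EXOC2, EXOC6, VPS35, VPS29 and SNX27. The blocked share over the brighter genes was not counted. VAMP7 and STX4 of this list differed by -0.16 and -0.07 and did not pass (limma adjusted p = 0.514 and 0.747). MMP14 itself differed by -0.01 (limma adjusted p = 0.967).

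Rab partners by symbol were few, and 0 of the 3 passed: RAB3IL1, an exchange factor for exocytic Rabs, had the smallest p at -0.34 (limma adjusted p = 0.256). Of 4 remaining symbols, 0 passed; STX16-NPEPL1 had the smallest p, at -0.23 (limma adjusted p = 0.257). The proteins that switch Rabs were covered more widely, with 33 of 60 listed regulators measured, of which 5 fell and 0 rose, with a median of -0.16. RIN2, an exchange factor for the endosomal Rab5, read 5.82, 6.23 and 5.77 in siControl and 4.49, 4.37 and 4.24 in siCSRP2. The groups were far apart and the difference was -1.57 (limma adjusted p = 0.00257), close in size to that of SNX7. The others were DENND4C (-0.87), CHML, a Rab escort protein (-0.81), EVI5 (-0.73) and DENND2B (-0.65). Of 30 measured Rab effectors of 41 listed, 4 fell and 0 rose, with a median of -0.03. They were OSBPL1A, a sterol sensor of late endosomes (-0.93), BICD2, a dynein adaptor (-0.64), EEA1, the Rab5-bound tether of early endosomes (-0.63, limma adjusted p = 0.0351), and OCRL, a phosphoinositide phosphatase (-0.53).

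**Figure D3:**
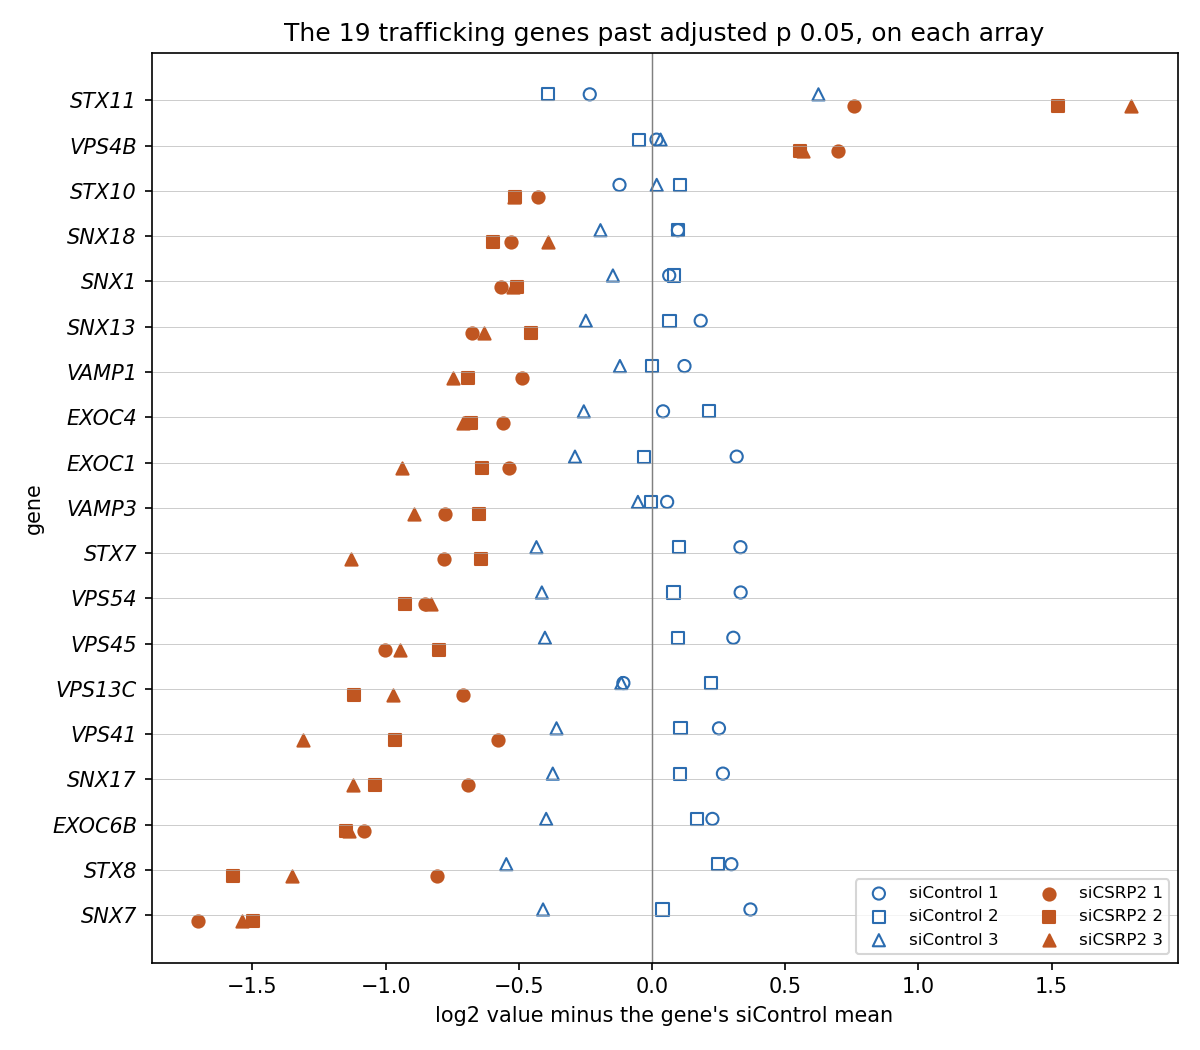
Log2 level on each array minus the siControl mean, for the 19 members past the threshold, arrays named by group and replicate. siControl replicate 3 lies on the siCSRP2 side of the siControl mean for 16 of the 17 genes that fell.

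The arrays did not weigh equally in these counts. siControl replicate 3 was below the siControl mean for 16 of the 17 genes that fell, against 2 for replicate 1 and 3 for replicate 2. It lay nearer to the siCSRP2 mean than to the mean of the other 2 controls for 56 of 100 members. Of the 19 past the threshold, this held for 7. How often it held over all genes was not counted, so these counts are descriptions only. The median of the members relative to the siControl mean was, in replicate order, 0.08, 0.04 and -0.12 in siControl and -0.22, -0.25 and -0.29 in siCSRP2. Without siControl replicate 3, 34 members fell, beside 14.7% of all genes. Without siControl replicate 1 the count was 3 (1.00% of all genes) and without siControl replicate 2 it was 1 (0.578%). Without siCSRP2 replicate 1, 2 or 3 it was 10 (4.95%), 3 (1.22%) and 4 (1.74%). Members higher numbered 2 without siControl replicate 3 or siCSRP2 replicate 1, 1 without siCSRP2 replicate 3, and 0 without any 1 of the other arrays. The number of members that fell therefore rests on which arrays are in the fit and moves with the count over all genes. Why siControl replicate 3 lay lower than the other controls in these genes was not tested.

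**Figure D4:**
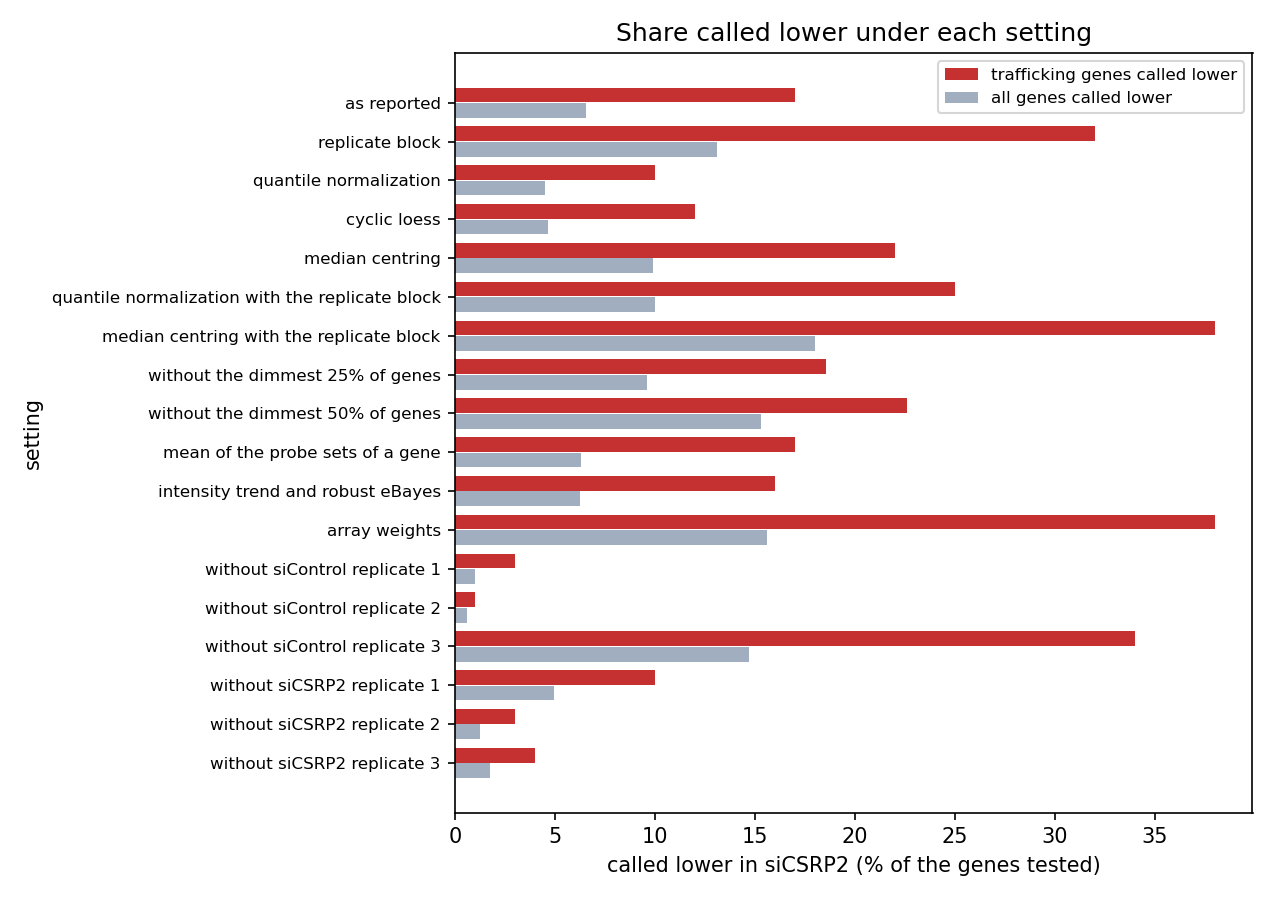
Percent of genes tested that were past the threshold and lower in siCSRP2 (x axis) under each setting (y axis), in red for the trafficking genes and grey for all genes. The red bars run from 1 member of 100 without siControl replicate 2 to 38 with array weights. Under each setting drawn the red bar is the longer, but members are brighter than the typical gene. Without the dimmest 50% of genes the bars are 22.6% and 15.3%.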

How the data were processed

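Values were log2 expression per probe set in the table the authors deposited, made with Partek per the submitters' processing notes; the genome build and the steps of background correction and summarisation were not given in the sources used here. A log2 scale was read from the range of the values. Of 53617 probe sets 16098 had 1 gene symbol, 0 had several and 37519 had none listed, and the brightest probe set per gene gave 14884 genes. The fit used limma 3.58.1 (R 4.3.3) with group as its only term and moderated variances. Adjusted p-values are Benjamini-Hochberg values over every gene, with 0.05 as threshold; the calculation was tested on simulated data. Fold values are powers of the log2 difference. The deposited values carry no background or saturation marks, so dim genes may understate a change.

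Deviations of same-numbered arrays from their group means correlated over all genes at r = 0.305, 0.187 and 0.321, and those of different numbers at -0.256 to 0.052. Deviations within a group cancel out, so the values of different numbers depend on those of the same number. The pairing comes from this check and not from the labels, so blocked p-values may be too small. Named genes are CSRP2, STX11, every member past the threshold with or without the replicate block, the member with the smallest p in role groups with none, up to 4 genes per list with the smallest adjusted p, markers, and members whose probe sets disagree. Members and lists were chosen with earlier results of these data known. Genes named outside this rule were chosen after their values were seen.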

Additional observations from a re-analysis of the deposited data

How the results depend on the processing

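All values here are from limma. Members lower, 17 as reported beside 6.54% of all genes, numbered 32 with the replicate block, beside 13.1%. They numbered 10 after quantile normalization (4.47% of all genes), 38 with median centring and the block together (18.0%) and 38 with array weights (15.6%). Leaving out 1 array in turn gave 1 to 34 members lower, beside 0.578% to 14.7% of all genes. The share over all genes thus moved with the member count. Members higher, 2 as reported beside 119 of all 14884 genes, numbered 4 with quantile normalization and the block, beside 524. With 1 array left out they numbered 0 to 2, beside 5 to 427 genes. The median difference of the members was -0.31 with median centring, with or without the block, and -0.30 to -0.20 with 1 array left out, beside -0.22. STX11 differed by 1.14 to 1.67 with 1 array left out. No call among the 19 reversed. The pairing by replicate number cost none of the 19 calls. Of these, 7 were lost after quantile normalization, 6 after cyclic loess, 4 with an intensity trend and robust eBayes, and 2 with quantile normalization and the block (SNX13 and STX10). Without siControl replicate 1, 2 or 3 the calls lost were 16, 18 and 0, and without siCSRP2 replicate 1, 2 or 3 they were 8, 17 and 15. The lone pair of arrays left in a group is assumed to vary like the other group. The cause of these losses was not tested. Median centring alone, the filters on dim genes, the mean of probe sets and array weights lost none of the calls they could test. Signal over background limits dim members such as SNX18.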

Other observations

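Golgi tethers and coats sit upstream of the genes described above. Of 22 measured COG and TRAPP genes of 23 listed, 1 rose, 1 fell and 20 were not past the threshold, with a median of -0.29. COG3, a subunit of the COG tether that keeps glycosylation enzymes in the Golgi, read 4.19, 3.99 and 4.15 in siControl and 4.62, 5.18 and 5.32 in siCSRP2. The groups were apart, and the difference of 0.93 had a limma adjusted p of 0.0220. COG7, a subunit of the same tether, fell by 0.65 on the log2 scale (limma adjusted p = 0.0468). With the replicate block 7 genes of this list were lower, beside 13.1% of all genes, and 1 was higher, beside 2.67%. The further ones were COG4 (-0.92), COG2 (-0.62), TRAPPC2L (-0.96), TRAPPC8 (-0.81), TRAPPC11 (-0.66) and TRAPPC9 (-0.43). Of 24 COPI and COPII coat genes, which move cargo between the endoplasmic reticulum and Golgi, 10 were measured; 0 passed in limma with or without the block, and their median difference was 0.07.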
